A study of Mus musculus with 12 samples.

Results

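Untreated primary mouse hepatocytes in culture were described across genes from 3 arrays, those titled as controls, of the 12 arrays in the series. They were chosen by title alone. The treated arrays were not compared, but the deposited normalization set the scale of all 12 arrays together. The cells came from livers of C57BL/6 mice, all 3 labelled male, and were freed with collagenase and plated on collagen in a serum-free hepatocyte medium. The medium was renewed 4 h after seeding, the cells then grew for 24 h, and it was exchanged again 1 h before the point at which sister cultures received TGF-β1. The untreated cells carried no transgene or deletion and received no agent. The study describes its cultures as biological replicates, the number of mice behind each culture is not given in the sources used here, and with 1 group of 3 arrays no difference between groups could be tested. The values below are levels and the spread between arrays, with no p-value.

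Hepatocytes make most proteins of blood plasma, clear ammonia through the urea cycle, store and release glucose, assemble lipoproteins and oxidize drugs. Plating removes them from the blood flow, the hormones and the neighbouring cells that hold this state in the liver. Isolated hepatocytes are known to spread on collagen, to build actin stress fibres and microtubules, to show acute phase and stress genes, and to lose part of their liver functions over days. In the mouse liver many genes also differ between the sexes, because the pulses of growth hormone differ between males and females.

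The RNA was read on whole-transcript arrays (Affymetrix Mouse Gene 1.0 ST), whose probes lie along the exons of each transcript. Values are log2 signals, so that a difference of 1 is a 2-fold difference in signal. A probe set's signal also depends on how well its probes bind, so ranks between genes are ranks of signal and not of molecule number. Of 35556 probe sets, 21789 had a single gene symbol in the platform annotation and gave 19938 genes, each taken from its probe set with the highest mean. A gene was called above the floor when its signal on each array exceeded the 95th percentile of that array's 1035 olfactory receptor probe sets, genes that liver cells are not known to use. The floor lay at 6.30, 6.33 and 6.32 on replicates 1, 2 and 3. By this call 12730 of 19938 genes (63.8%) were above the floor on all 3 arrays, and 6429 were above it on none. List counts below are to be read against this 63.8%, also where it is not repeated. The median gene had a log2 signal of 7.18, the 90th percentile lay at 10.56 and the 99th at 12.75, against a median of 5.03 for olfactory receptor genes. Where 3 signals are given in a row below, they are those of replicates 1, 2 and 3 in that order.

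**Figure D1:**
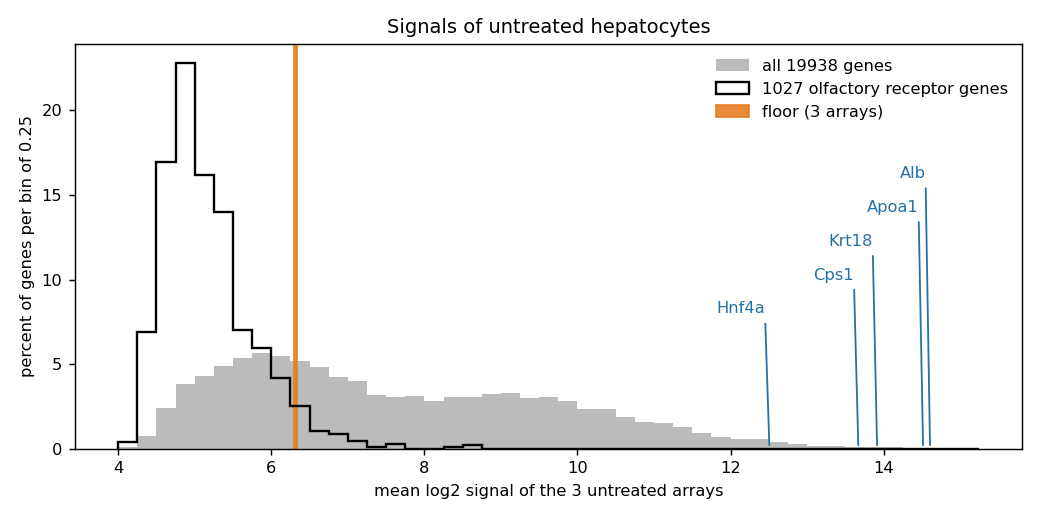
Distribution of the mean log2 signal of the 3 untreated arrays, in percent of genes per bin, for all 19938 genes (grey) and for 1027 olfactory receptor genes (black outline). The orange line marks the floor of the 3 arrays, most olfactory receptor genes lie left of it, and the 5 hepatocyte markers Alb, Apoa1, Krt18, Cps1 and Hnf4a lie in the right tail.

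The 3 arrays did not match each other equally, and sex-linked genes on replicates 2 and 3 went against the label male. Xist, the RNA that silences an X chromosome in female cells (chrX:103460373-103483233, GRCm38.p6), had log2 signals of 5.82, 12.94 and 12.83. The Y-linked genes showed the opposite order. Eif2s3y, which encodes a translation factor subunit, had 9.06, 4.57 and 4.66. Uty, a histone demethylase homologue, had 8.44, 4.78 and 4.83. Kdm5d, a histone demethylase, had 8.09, 5.66 and 5.60. Replicate 1 thus had Y-linked signal above the floor with Xist below it, and replicates 2 and 3 had Xist over the 90th percentile of gene signals with all 3 Y-linked genes below the floor.

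Autosomal liver genes known to differ between male and female mice parted the arrays in the same way. These genes were chosen with earlier results of these data known. The direction of each was noted after the sex-linked pattern was seen, so their counts are a description and not independent support. Of 10 measured genes known to be higher in males, 10 were highest on replicate 1, 9 of them at least 2-fold above the mean of replicates 2 and 3, where 1.84% of all genes were. Cyp4a12a, a male-specific fatty acid hydroxylase, had 12.83, 4.83 and 4.96. Elovl3, a fatty acid elongase, had 11.80, 4.95 and 4.93, and was thus below the floor on replicates 2 and 3. Hsd3b5, a steroid dehydrogenase of male liver, had 10.69, 5.19 and 5.24. Of 7 measured genes known to be higher in females, 7 were lowest on replicate 1, 5 of them at least 2-fold below the other arrays, where 0.617% of all genes were. Cyp2b9, a female-predominant cytochrome P450, had 6.29, 12.12 and 12.10. Sult3a1, a female-predominant sulfotransferase, had 4.53, 8.86 and 8.48. The exceptions in size were Mup3 (13.72, 13.28 and 13.17) among the male-biased genes, and Cux2 (6.97, 7.25 and 7.24) and Acot3 (5.96, 6.62 and 6.18) among the female-biased ones.

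**Figure D2:**
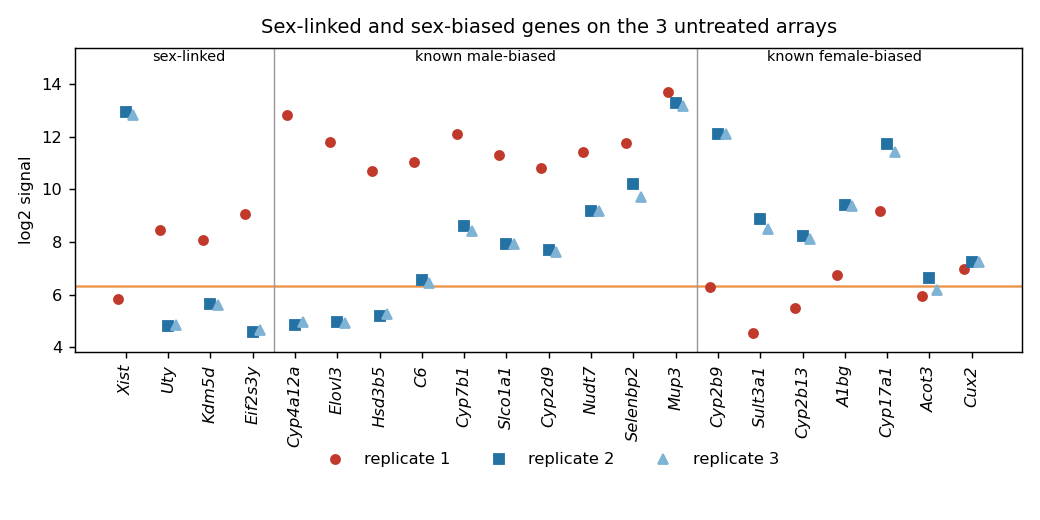
Log2 signal (y axis) of sex-linked genes and of liver genes known to be higher in male or female mice, on replicate 1 (red circles), replicate 2 (dark blue squares) and replicate 3 (light blue triangles), with the floor of the 3 arrays in orange. Replicate 1 has high Uty, Kdm5d and Eif2s3y with low Xist, replicates 2 and 3 have the reverse, and the 10 male-biased and 7 female-biased genes part the arrays the same way.

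The same split ran through the whole array. Over 19938 genes Pearson's r was 0.983 between replicates 1 and 2, 0.981 between 1 and 3 and 0.999 between 2 and 3, a correlation across genes, which are not independent replicates. A 2-fold difference in signal was seen for 461 genes between replicates 1 and 2, for 535 between 1 and 3 and for 0 between 2 and 3, whose widest difference was 0.93. Replicate 1 was the highest or the lowest array in 88.4% of genes above the floor. The shares of all genes highest and lowest on it were not counted apart. Counts below of list members higher or lower on replicate 1 thus lack such a share beside them. Replicates 2 and 3 had the same value in 4 genes, so they were different arrays, but whether they came from separate mice is not given in the sources used here. The study's methods state that the hepatocyte arrays had a strong batch effect, without saying which arrays formed the batches. Sex, batch and the culture itself cannot be told apart here as sources of the distance between replicate 1 and the other arrays. For this reason signals are given array by array. Counts of hepatocyte, Kupffer cell, endothelial and stellate cell markers are given also for replicate 1 alone and for replicates 2 and 3. The other list counts are for all 3 arrays together, and some of them differ between the arrays. In the cytoskeleton list, for example, 29 genes were above the floor on all arrays, 29 on replicate 1 and 32 on replicates 2 and 3.

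The brightest transcripts with a single gene symbol were those of secreted liver proteins, metal-binding proteins and the cytoskeleton. The 20 genes with the highest signal ran from 14.21 to 14.78, near the highest signal of the arrays (15.22), and none of them ranged over more than 0.24 between arrays. The 13767 probe sets with several symbols or none were not ranked. Their means reached 15.15, and 376 of them exceeded the 99th percentile of gene signals, so transcripts left out may outrank those named. Alb, the albumin of plasma (chr5:90460870-90476602), ranked 3 with 14.63, 14.62 and 14.57. Apoa1, the main protein of high-density lipoprotein (chr9:46228630-46230469), ranked 5 with 14.51, 14.50 and 14.54. The apolipoprotein genes Apoe, Apoc3 and Apoa2, the iron carrier Trf, the retinol carrier Rbp4 and the mineral-binding Ahsg were also among the 20. So were the metallothioneins Mt1 and Mt2, the ferritin chains Fth1 and Ftl1, thioredoxin Txn1 and Lcn2, a siderophore-binding acute phase protein. Mt2 had 14.57, 14.61 and 14.63, level with albumin in signal. Actb, keratin Krt8, the elongation factor Eef1a1, the desaturase Scd1 and the small nuclear RNA Rn7sk completed the 20 with Baiap2l1, a membrane-bending adaptor. The place of Baiap2l1 is uncertain, since its 3 probe sets disagreed, the brightest with a mean of 14.78 and the dimmest with 10.31.

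Of the 100 brightest genes, 28 were in the lists of plasma proteins, acute phase genes, apolipoproteins, complement or coagulation, and 8 encoded ribosomal proteins. A further 2 lay on the mitochondrial genome, where only 2 genes were measured. The share of all genes in these lists or encoding ribosomal proteins was not counted. Of the 100, 78 were among the 100 brightest of each array, and of the 20 named above 13 were among the 20 brightest of each. Of the 100, 1 gene ranged over 1 or more between arrays.

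Promoters of the brightest genes are shown because forkhead factors such as FOXA are known to act on many liver genes. RefSeq (GRCm38.p6) held a promoter for 74 of the 100, and the 250 bases before the listed start were searched on both strands, each motif counted apart from the others. TGTTTAC, letters bound by forkhead factors, was in 6 of 74 (8.11%), against 2.72% of all 15614 promoters. Among the 200 brightest genes it was in 7 of 155 (4.52%), so that the share rests on few promoters. TATAAA was in 16.2%, against 11.2%, and the GC box GGGCGG in 33.8%, against 46.0%. Among genes above the floor TATAAA was in 7.02% and GGGCGG in 57.4%, and among genes not above it in 18.9% and 24.8%. CCAAT was in 37.8%, near the 35.5% of all promoters. CAAAGTCCA, an element read by HNF4, and TTGCGCAA, a C/EBP palindrome, were in 0 of 74, which says only that these letters were not in these windows. The promoters below are those of the 2 brightest genes with TGTTTAC, the retinol carrier Rbp4 and the apolipoprotein Apoa2. Capitals mark it, in Rbp4 as GTAAACA, its reverse complement.
Rbp4, chr19:38125322-38125571, minus strand: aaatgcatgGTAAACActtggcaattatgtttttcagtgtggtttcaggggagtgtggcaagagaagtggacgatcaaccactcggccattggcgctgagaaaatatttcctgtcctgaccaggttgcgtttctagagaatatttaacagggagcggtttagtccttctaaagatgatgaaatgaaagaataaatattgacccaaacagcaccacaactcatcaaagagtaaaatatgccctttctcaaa
Apoa2, chr1:171224804-171225053, plus strand: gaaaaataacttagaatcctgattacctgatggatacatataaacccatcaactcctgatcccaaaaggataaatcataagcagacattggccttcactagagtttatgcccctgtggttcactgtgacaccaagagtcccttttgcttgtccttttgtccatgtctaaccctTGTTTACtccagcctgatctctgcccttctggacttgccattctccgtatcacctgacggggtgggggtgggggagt
In Rbp4 the match began 241 bases before the start, and in Apoa2 77 bases. RefSeq gives Apoa2 another start further upstream, so its window, which precedes the start listed first, lies within the span of the gene. A match is a description of letters and not of binding. Promoters of the 100 brightest genes had a median of 9 CpG, against 11 for all promoters, 15 for genes above the floor and 3 for genes not above it.

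Markers of hepatocytes, the labelled cell type, were bright on each array. Of 16 measured hepatocyte markers 16 were above the floor, on replicate 1 alone and on replicates 2 and 3 as well. Krt18, a keratin of simple epithelia (chr15:102028216-102032026), had 13.91, 13.90 and 13.94. Cps1, which starts the urea cycle (chr1:67122426-67231267), had 13.50, 13.75 and 13.76. Hnf4a, a nuclear receptor that maintains hepatocyte identity (chr2:163506811-163572907), had 12.31, 12.59 and 12.62. The lowest were the asialoglycoprotein receptor chains Asgr1 (11.51, 10.70 and 10.58) and Asgr2 (11.49, 10.48 and 10.53), both brightest on replicate 1. Across the 16 the median SD was 0.12 and the median log2 signal 13.83.

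Markers of other liver cells were much dimmer, though not absent. In RNA from a mixed culture, fewer cells of a type and less RNA per cell cannot be told apart. Of 22 Kupffer cell and macrophage markers 17 were above the floor (77.3%, against 63.8% of all genes), with list means of 7.40, 7.38 and 7.28. The count was 17 on replicate 1 alone and 19 on replicates 2 and 3. It fell to 10 with the floor at the 99th percentile of olfactory receptors. With the floor at the median of single-symbol probe sets it fell to 8. Cd68, a lysosomal protein of macrophages that other cells can also use, had 12.07, 11.99 and 11.88. The complement chain C1qb had 9.64, 9.10 and 8.94, and the colony-stimulating factor receptor Csf1r 8.04, 7.53 and 7.44. Clec4f, the lectin that defines Kupffer cells in the mouse, stayed close to the floor with 6.27, 6.48 and 6.48. Mpeg1, a pore-forming protein of macrophages, was the member with a range of at least 1 (8.08, 7.06 and 6.96). Mrc1, the mannose receptor, was below the floor with 5.70, 5.54 and 5.52.

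Liver endothelial markers numbered 16 of 20 above the floor (80.0%, against 63.8% of all genes), with list means of 7.48, 7.10 and 7.10. The count was 18 on replicate 1 alone and 16 on replicates 2 and 3. With the floor at the 99th percentile of olfactory receptors, or at the median of single-symbol probe sets, it was 8. Replicate 1 was higher than the mean of the other arrays in 19 of the 20, by a list median of 0.24, against -0.028 over all genes. Cdh5, the endothelial cadherin, had 10.23, 9.31 and 9.19. Lyve1, a hyaluronan receptor of sinusoidal cells, had 9.12, 8.53 and 8.59, and the scavenger receptor Stab2 8.10, 7.48 and 7.53. Kdr, the main receptor for VEGF, and Dnase1l3 were below the floor on each array.

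Stellate cell and fibroblast markers gave 13 of 20 above the floor on each count (65.0%, near the 63.8% of all genes), with list means of 6.93, 6.84 and 6.84. Dcn, a matrix proteoglycan of fibroblasts, had 10.32, 7.89 and 8.01, so that replicate 1 stood apart. The collagen chains Col1a1 (7.51, 7.57 and 7.54) and Col3a1 (7.11, 7.25 and 7.22) lay just over 1 unit or less above the floor. Lrat, which esterifies retinol in stellate cells, the receptor Pdgfrb, Hgf and Lum were below it. Cholangiocyte markers gave 5 of 13. Krt19, a bile duct keratin, had 6.76, 6.71 and 6.77, and Epcam was below the floor with 5.71, 5.82 and 5.82. Sox9, a factor of bile duct cells that hepatocytes can also use, was the exception with 10.52, 8.96 and 9.05.

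Blood and surface cells left little signal. T and NK cell markers gave 3 of 15 above the floor, B cell markers 2 of 8, neutrophil markers 1 of 13 and mesothelial markers 3 of 7. The markers above the floor in these lists were close to it, the highest being the T cell chain Cd3e with 7.03, 7.10 and 7.18. Defining genes such as Ms4a1, S100a8, S100a9 and Gzma were below the floor on each array. Erythroid markers gave 4 of 8, and 1 of them was bright: Alas2, the erythroid enzyme that starts haem synthesis, had 10.81, 7.57 and 7.62, whereas the erythroid factor Klf1 had 6.55, 6.73 and 6.72 and Rhag was below the floor.

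**Figure D3:**
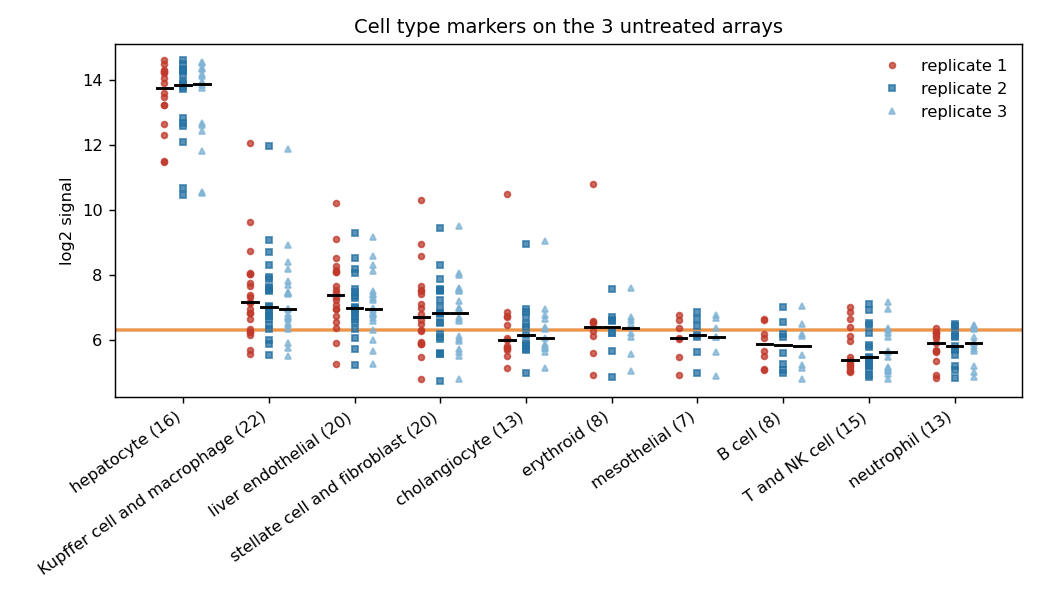
Log2 signal (y axis) of each measured marker of 10 cell types, by array, with the number of markers in brackets, the median of each array as a black bar and the floor in orange. Hepatocyte markers lie between 10 and 15, and the medians of all other lists lie below 8.

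Secreted proteins were the brightest function among the lists. Of 36 plasma protein genes 35 were above the floor, with a median log2 signal of 13.08. Trf had 14.30, 14.34 and 14.34, and Ttr, the thyroxine carrier transthyretin, had 14.33, 14.16 and 14.13. The fibrinogen chains differed in signal, with Fgg at 14.23, 13.98 and 13.96, Fgb at 14.07, 13.96 and 13.94 and Fga at 11.32, 10.75 and 10.63. The gene not above the floor on all arrays was Serpina7, a thyroxine-binding globulin, with 7.08, 5.98 and 5.97. The IGF-binding proteins Igfbp4 (12.14, 10.39 and 10.26) and Igfbp2 (11.19, 9.97 and 9.97) were brightest on replicate 1, while Igfbp1 (13.24, 13.45 and 13.38) was not.

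Acute phase genes were bright in the untreated culture, with 21 of 21 above the floor and a median of 12.60. Lcn2 had 14.22, 14.37 and 14.35. Serpina3n, a protease inhibitor of the acute phase, had 14.01, 14.30 and 14.25, and Orm1, an orosomucoid, 13.93, 13.93 and 13.92. The serum amyloid genes Saa2 (13.24, 13.31 and 13.20) and Saa3 (12.66, 12.64 and 12.50) were bright as well. Hamp, the iron hormone hepcidin, had 13.45, 12.74 and 12.69. Apcs, serum amyloid P, was the member with a range of at least 1 (10.17, 11.38 and 11.33), lowest on replicate 1. These levels have no counterpart from fresh liver here, so that a change with culture was not measured.

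Apolipoproteins and lipoprotein handling genes were above the floor in 17 of 17 cases. Apoe had 14.48, 14.38 and 14.41, Apob, the core protein of very-low-density lipoprotein, 12.85, 12.82 and 12.83, and its lipid loader Mttp 12.56, 12.84 and 12.79. Apoa5, a regulator of plasma triglyceride, had 10.76, 9.70 and 9.64 and was the member with a wide range.

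Complement genes parted the arrays. Of 20 measured 19 were above the floor, the exception being C7, and 10 ranged over at least 1 on the log2 scale, where 2.83% of all genes did. All 10 were brightest on replicate 1. They included C6, C8a (11.54, 9.33 and 9.33), C8b (13.12, 11.75 and 11.73) and C9 (12.86, 11.33 and 11.22), which form the membrane attack complex. Mbl1, a lectin that starts the lectin pathway, had 9.55, 7.60 and 7.60. Replicate 1 was above both other arrays in 18 of the 20, by a list median of 0.91 over their mean, against -0.028 over all genes. The distance was smaller in C8g (13.39, 12.99 and 13.06), the inhibitor Serping1 (13.33, 13.02 and 13.05) and factor B, Cfb (12.28, 12.16 and 12.16). Because C6 is itself a gene of male liver, it was counted among the sex-biased genes too.

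Coagulation genes gave 18 of 21 above the floor. On replicate 1, 21 of 21 were higher than the mean of the other arrays, by a median of 0.37, against -0.028 over all genes. F2, prothrombin, had 13.43, 13.21 and 13.17. The widest members were Serpind1, heparin cofactor (12.07, 10.56 and 10.43), Proz, protein Z (10.85, 9.28 and 9.25), and Thbd, thrombomodulin, an endothelial anticoagulant (8.54, 6.99 and 7.15). F13a1 was below the floor on each array. F8, which endothelial cells make, had 6.33, 6.25 and 6.24.

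Genes of nitrogen metabolism were bright on all arrays, and brighter on replicate 1 in most cases. Of 30 enzymes and carriers for urea and amino acids, 30 were above the floor (63.8% of all genes were). A range of at least 1 was seen in 13 (2.83% of all genes), and replicate 1 was at least 2-fold above the mean of the other arrays in 13 (1.84% of all genes). Within the urea cycle, Arg1, which releases urea, had 12.66, 12.69 and 12.44, Asl, which makes arginine, 11.45, 12.03 and 12.08, and Otc, which makes citrulline, 11.93, 10.79 and 10.72. Cps1 and Asl were thus lowest on replicate 1 and Otc highest. Tryptophan breakdown followed Otc, with Tdo2, its entry enzyme, at 12.81, 11.39 and 11.39, Kmo at 11.68, 10.35 and 10.27 and Kynu at 11.46, 9.31 and 9.19. Tat, which begins tyrosine breakdown and responds to glucocorticoids, was even between arrays with 13.60, 13.81 and 13.84.

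Carbohydrate genes gave 21 of 23 above the floor. Ldha, lactate dehydrogenase, had 13.74, 13.52 and 13.40. G6pc, which releases glucose, had 13.00, 13.45 and 13.19, and Fbp1, an enzyme of gluconeogenesis, 13.48, 12.91 and 12.87. Pck1, the enzyme that commits carbon to gluconeogenesis, was far less even with 11.66, 9.01 and 8.76. The glucose transporter Slc2a1, low in healthy hepatocytes and known to appear in culture, had 13.25, 11.69 and 11.43, against 11.36, 11.61 and 11.47 for the liver transporter Slc2a2. The hexokinase genes Hk2 (6.41, 6.33 and 6.41) and Hk3 (6.04, 6.17 and 6.08) were close to or below the floor, with Hk2 above it on 2 arrays and Hk3 on none, whereas Hk1 had 12.81, 12.84 and 12.80.

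Lipid genes were above the floor in 25 of 25 cases. Scd1, which desaturates fatty acids, had 14.35, 14.20 and 14.19. The lipid droplet protein Plin2 had 12.50, 12.74 and 12.84, and the fatty acid synthase Fasn 11.17, 11.16 and 11.19. Fabp1, the fatty acid carrier of hepatocytes, had 13.47, 11.20 and 10.98. Cpt1a, which admits fatty acids to mitochondria, had 10.40, 9.36 and 9.50, also highest on replicate 1, and the elongase Elovl6 had 10.97, 11.90 and 12.03, lowest there.

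Drug-metabolizing genes were bright but uneven between arrays. Of 31 cytochrome P450 genes 26 were above the floor (83.9%, against 63.8% of all genes). A range of at least 1 was seen in 12 (38.7%, against 2.83%), 8 with replicate 1 at least 2-fold above the other arrays and 4 at least 2-fold below. Cyp2f2 (14.04, 13.49 and 13.60), Cyp2d26 (13.66, 13.61 and 13.58) and the ethanol-oxidizing Cyp2e1 (13.97, 13.42 and 13.39) were brightest. Cyp3a11, a main drug-oxidizing enzyme, had 13.25, 12.10 and 11.83. Cyp1a2, which oxidizes caffeine, had 12.37, 11.29 and 11.22. In the opposite direction, Cyp2b10, a target of the receptor CAR, had 12.18, 13.35 and 13.32, and Cyp4a14, a target of PPARα, 9.19, 11.40 and 11.43. Close paralogs of these families can share probes, so their signals are not fully separate. Cyp7a1, the rate-limiting enzyme of bile acid synthesis, was near the floor with 7.0, 6.34 and 6.02. Cyp1b1 was below it on each array, and Cyp1a1, a target of the dioxin receptor, had 5.90, 6.64 and 6.78.

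Conjugating enzymes gave 24 of 24 above the floor. Gstp1 (13.96, 13.83 and 13.88), a glutathione transferase, was the brightest. Of the glucuronosyltransferases, Ugt2b1 (12.67, 10.70 and 10.57) and Ugt2b5 (12.01, 10.39 and 10.21) were more than 2-fold brighter on replicate 1, and Ugt2b34 (12.48, 11.88 and 11.78) was less uneven. Sult2a8, a sulfotransferase, had 11.72, 9.22 and 8.94.

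Transporters gave 27 of 28 above the floor (96.4%, against 63.8% of all genes), with 9 of wide range (32.1%, against 2.83%). The bile acid importer Slc10a1 had 13.25, 12.83 and 12.69, and the bile salt export pump Abcb11 11.25, 9.85 and 9.79. The organic anion importers Slco1a1 (11.33, 7.94 and 7.93), also counted among the male-biased genes, and Slco1b2 (10.35, 8.14 and 8.03) were brightest on replicate 1. Exporters known to respond to stress went the other way, with Abcc2 at 11.34, 11.87 and 12.02, Abcc3 at 11.52, 12.07 and 12.05 and Abcc4 at 7.07, 7.93 and 8.02. Slc51a, a basolateral bile acid exporter chain, was below the floor.

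Zonation genes of both ends of the liver lobule were present together. Dissociation of the liver mixes the cells of all zones. Periportal genes gave 16 of 16 above the floor and pericentral genes 16 of 19. Glul, glutamine synthetase, which in liver is held to the cells around the central vein, had 12.62, 12.25 and 12.32. The Wnt targets Axin2 (6.26, 6.29 and 6.24) and Lgr5 (6.06, 6.23 and 6.32) were below the floor on each array. The periportal enzyme Hal, which breaks down histidine, had 11.25, 10.06 and 9.87, and Gldc of the glycine cleavage system 9.71, 11.12 and 11.30, so that periportal members differed in which array was highest.

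Liver-enriched transcription factors were above the floor in 30 of 30 cases, with a median of 9.48. Xbp1, which serves the secretory pathway, had 12.69, 12.79 and 12.86. The forkhead factors that open liver chromatin had lower signals, with Foxa3 at 9.43, 9.61 and 9.57, Foxa1 at 8.75, 9.76 and 9.88 and Foxa2 at 8.20, 8.75 and 8.90. Cebpa, a factor of metabolic genes, had 10.20, 9.93 and 9.84, and Cebpb, which rises in the acute phase, 10.54, 9.71 and 9.68. Members with a range of at least 1 were Foxa1, lowest on replicate 1, and Creb3l3 (10.23, 9.06 and 9.01) and Onecut1 (8.86, 7.82 and 7.67), highest there. HNF4α, XBP1 and the rest of this list act as proteins, whose amounts were not measured.

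Of 45 nuclear receptors 34 were above the floor (75.6%, against 63.8% of all genes). None of the 45 ranged over 1 or more, which is near the 2.83% of all genes for a family of this size. After Hnf4a the brightest were Ppara, the fatty acid receptor (10.61, 11.54 and 11.57), the clock repressor Nr1d1 (11.70, 10.90 and 10.95) and the partner receptor Rxra (10.72, 10.67 and 10.69). The glucocorticoid receptor Nr3c1 had 10.14, 9.90 and 9.81. The drug sensors Nr1i2 (9.39, 9.20 and 9.10) and Nr1i3 (7.79, 7.77 and 7.90) differed in signal, as did the bile acid receptor Nr1h4 (8.19, 8.24 and 8.12) and its target Nr0b2 (7.16, 6.52 and 6.51). Hnf4g, Nr2f1, Vdr and Esr2 were among the 11 not above the floor.

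Immediate early and stress factors were above the floor in 34 of 34 cases. Myc had 12.23, 12.54 and 12.53, and Nfe2l2, which encodes the antioxidant regulator NRF2, 12.18, 12.44 and 12.56. Atf3, a stress-induced factor, had 12.70, 11.74 and 11.72, and Jun 11.76, 11.33 and 11.45. Fos, the partner of Jun, was dimmer with 8.37, 7.24 and 7.38. Of the factors known for epithelial-mesenchymal transition, Zeb1 had 9.54, 9.84 and 9.91, Snai2 8.14, 7.71 and 7.81, Snai1 7.44, 7.76 and 7.67 and Zeb2 7.21, 6.77 and 6.72.

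**Figure D4:**
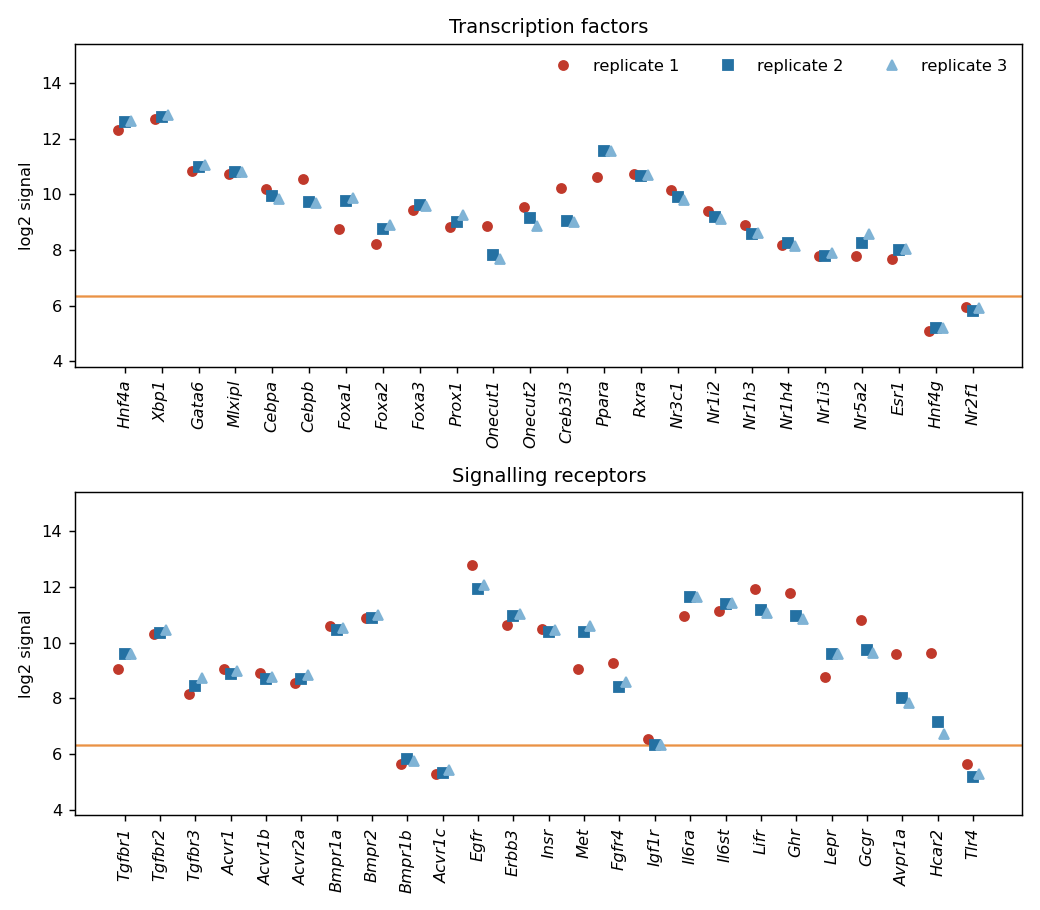
Log2 signal (y axis) of chosen transcription factors (upper panel) and signalling receptors (lower panel) on replicate 1 (red circles), replicate 2 (dark blue squares) and replicate 3 (light blue triangles), with the floor in orange. Hnf4a and Xbp1 lead the factors and Egfr the receptors, and Hnf4g, Nr2f1, Bmpr1b, Acvr1c and Tlr4 lie below the floor.

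Transcripts of the receptors for TGF-β, the ligand of the study, gave signal above the floor before any stimulus. The receptor proteins were not measured. Of 15 receptors of the superfamily 12 were above the floor (80.0%, against 63.8% of all genes). The type I receptor Tgfbr1 had 9.04, 9.60 and 9.58, the type II receptor Tgfbr2 10.33, 10.34 and 10.46, and the co-receptor betaglycan, Tgfbr3, 8.14, 8.46 and 8.72. The BMP receptors Bmpr2 (10.91, 10.90 and 10.98) and Bmpr1a (10.59, 10.45 and 10.52) were brighter in signal. Amhr2, Bmpr1b and Acvr1c were below the floor. Eng, a co-receptor of endothelial cells, was the member with a wide range (8.15, 7.03 and 7.41).

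SMADs and their regulators were above the floor in 19 of 19 cases, against 63.8% of all genes. None had a wide range, which is near the 2.83% of all genes for a list of this size. The shared partner Smad4 had 10.34, 10.81 and 10.82. The TGF-β effectors Smad2 (9.30, 9.19 and 9.17) and Smad3 (9.44, 9.28 and 9.55) and the BMP effectors Smad1 (9.07, 9.17 and 9.26) and Smad5 (9.24, 9.82 and 9.89) lay within about 1 unit of each other. The inhibitory Smad7 (7.93, 7.78 and 7.80) and Smad6 (6.67, 6.60 and 6.53) were dimmer. The corepressors Ski (9.58, 9.71 and 9.88) and Skil (9.46, 9.01 and 9.04) were intermediate.

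Among receptor tyrosine kinases 32 of 52 were above the floor (61.5%, near the 63.8% of all genes). Egfr led with 12.79, 11.94 and 12.07. Erbb3, its dimer partner, had 10.64, 10.96 and 11.03, the insulin receptor Insr 10.49, 10.39 and 10.46, and Met, the receptor for hepatocyte growth factor, 9.07, 10.38 and 10.59. Igf1r, known to be scarce in hepatocytes, was just over the floor with 6.56, 6.33 and 6.33. Erbb4 and the platelet-derived growth factor receptors Pdgfra and Pdgfrb were below it.

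Cytokine and innate receptors gave 29 of 42 above the floor (69.0%, near the 63.8% of all genes). Tnfrsf12a, the receptor for TWEAK, had 12.52, 13.14 and 13.28. The receptors for interleukin-6 were bright in both chains, Il6ra with 10.96, 11.64 and 11.63 and the signalling chain Il6st with 11.15, 11.38 and 11.43. Ghr, the growth hormone receptor, had 11.78, 10.98 and 10.87, and the leukaemia inhibitory factor receptor Lifr 11.93, 11.19 and 11.09. Il1rap, an interleukin-1 co-receptor, was the member with a wide range (11.06, 9.90 and 9.92). Tlr4, the endotoxin receptor, was below the floor with 5.65, 5.16 and 5.28, although its co-receptor Cd14 had 12.36, 12.86 and 12.93.

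Of 44 hormone, Wnt, Notch and other receptors 38 were above the floor (86.4%, against 63.8% of all genes). The glucagon receptor Gcgr had 10.80, 9.75 and 9.63, the vasopressin receptor Avpr1a 9.60, 8.02 and 7.83 and the niacin receptor Hcar2 9.64, 7.15 and 6.71. All of these were brightest on replicate 1. Notch2, which directs bile duct fate, had 9.42, 10.29 and 10.40, lowest on replicate 1. The Wnt co-receptor Lrp6 was even with 10.04, 9.84 and 9.92. Glp1r and Cnr1 were below the floor.

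Genes tied to culture on plastic and collagen were mixed. Of 35 cytoskeleton and culture genes 29 were above the floor (82.9%, against 63.8% of all genes). The tubulin Tubb5 had 11.95, 12.64 and 12.74, and Tubb2a 9.52, 10.93 and 10.95. Tagln2, an actin-binding protein, had 9.38, 10.50 and 10.68, while vimentin, Vim, a mesenchymal filament, had 9.32, 8.25 and 8.34 and the galectin Lgals1 9.57, 7.95 and 8.12. Over the 35 genes, replicate 1 was lower than either other array in 22 and higher than either in 10. It was the highest or lowest array in 88.4% of all genes above the floor, so that lying outside the other arrays was not particular to this list. Its median distance from their mean was -0.14, against -0.028 over all genes. Afp, the fetal albumin relative, was close to the floor with 6.16, 6.48 and 6.64.

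Targets of NRF2 and other antioxidant genes gave 23 of 24 above the floor with a median of 12.89. Srxn1, a sulfiredoxin, had 13.18, 13.78 and 13.84, and the haem oxygenase Hmox1 13.30, 12.81 and 12.80. The cystine importer Slc7a11 had 11.15, 12.43 and 12.49. The quinone reductase Nqo1 was far dimmer with 7.50, 8.92 and 9.0. Of the 24 genes, 17 were lower on replicate 1 than on either other array, and both members of wide range, Slc7a11 and Nqo1, were among them. The list median of replicate 1 minus the mean of the others was -0.11, against -0.028 over all genes.

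Proliferation genes gave 20 of 26 above the floor (76.9%, against 63.8% of all genes). Of the 26, 0 had a wide range, which is near the 2.83% of all genes for a list of this size. Ccnd1, the cyclin of the entry into the cycle, had 8.81, 8.94 and 9.14, and Ccne1 8.68, 8.99 and 9.19. Genes of DNA synthesis were present, with Rrm2 at 11.32, 11.79 and 11.72 and Pcna at 11.40, 11.60 and 11.41. Genes of the later cycle were divided. Cdk1, the mitotic kinase, had 7.09, 7.35 and 7.70 and the cyclin Ccnb2 8.61, 8.38 and 8.72, but Mki67 (5.84, 6.07 and 6.00), Top2a (5.70, 5.82 and 5.75), Ccna2 (5.48, 5.59 and 5.54) and Bub1 (5.06, 5.06 and 5.05) were below the floor.

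Inflammatory mediators gave 19 of 27 above the floor (70.4%, near the 63.8% of all genes). Cxcl9, a chemokine induced by interferon-γ, had 10.79, 12.86 and 12.81, and the neutrophil chemokine Cxcl1 10.95, 10.45 and 10.68. Ccl5 had 10.67, 9.40 and 9.24, and Ccl7 9.34, 7.50 and 7.75, both highest on replicate 1. The feedback inhibitor Socs3 had 9.70, 8.24 and 8.09. The cytokines Il6 (4.68, 4.56 and 4.63), Il1b (5.61, 5.77 and 5.67) and Tnf (6.22, 6.27 and 6.10) were below the floor.

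Cell junction genes were above the floor in 24 of 25 cases. The epithelial cadherin Cdh1 had 11.42, 11.14 and 11.25 and Cdh2 10.58, 10.47 and 10.57, both of which hepatocytes are known to use. Of the gap junction genes, Gjb1 had 10.45, 10.98 and 11.10, Gjb2 10.74, 9.74 and 9.64 and Gja1, a connexin of other cell types, 7.43, 6.53 and 6.41. The connexins thus did not share an order of arrays.

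Over all genes the spread was small. The median SD over the 3 arrays was 0.095 on the log2 scale, 0.13 for genes above the floor and 0.064 for the others, and 0.047 over replicates 2 and 3 alone. The median SD was 0.049 in the dimmest of 10 equal groups of genes by signal and between 0.12 and 0.16 in the 5 brightest groups. Of 12730 genes above the floor 511 (4.01%) ranged over at least 1, and in 510 of these replicate 1 was the array apart from the other two. The widest were C6 (11.04, 6.55 and 6.43), Aox3, an aldehyde oxidase (11.39, 6.92 and 6.85), and Keg1 (11.05, 7.27 and 7.03). Next came Cyp7b1, an oxysterol hydroxylase (12.12, 8.60 and 8.41), Slco1a1, Alas2, Adgrf1 (9.95, 7.29 and 6.72), Cyp2d9 (10.82, 7.68 and 7.60) and the steroid dehydrogenase Hsd3b3 (11.31, 8.22 and 8.39). Nt5e, which makes adenosine outside the cell, was the one of these 10 that was lowest on replicate 1 (9.17, 12.28 and 12.36). C6, Cyp7b1, Slco1a1 and Cyp2d9 were also counted among the male-biased genes above, so they are not further instances of the split.

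Between lists the distance of replicate 1 from the mean of the other arrays differed in size and direction. Its median was 0.91 in complement, 0.84 in the urea cycle and amino acid list, 0.54 in periportal genes, 0.51 in phase II enzymes and 0.48 in transporters. It was -0.14 both in liver-enriched factors and in cytoskeleton genes and -0.11 both in NRF2 targets and in proliferation genes, and over all genes it was -0.028. The largest median absolute difference between replicates 2 and 3 in any list was 0.12, in periportal genes. On replicate 1 alone the median signal of 24 of 38 lists differed from that of the 3 arrays by at least 0.095, the median SD over all genes. These included complement, urea cycle, periportal, phase II and transporter genes, and also coagulation (9.87 on the 3 arrays, 10.56 on replicate 1). The levels given for such lists thus depend on whether replicate 1 or the other arrays are read.

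**Figure D5:**
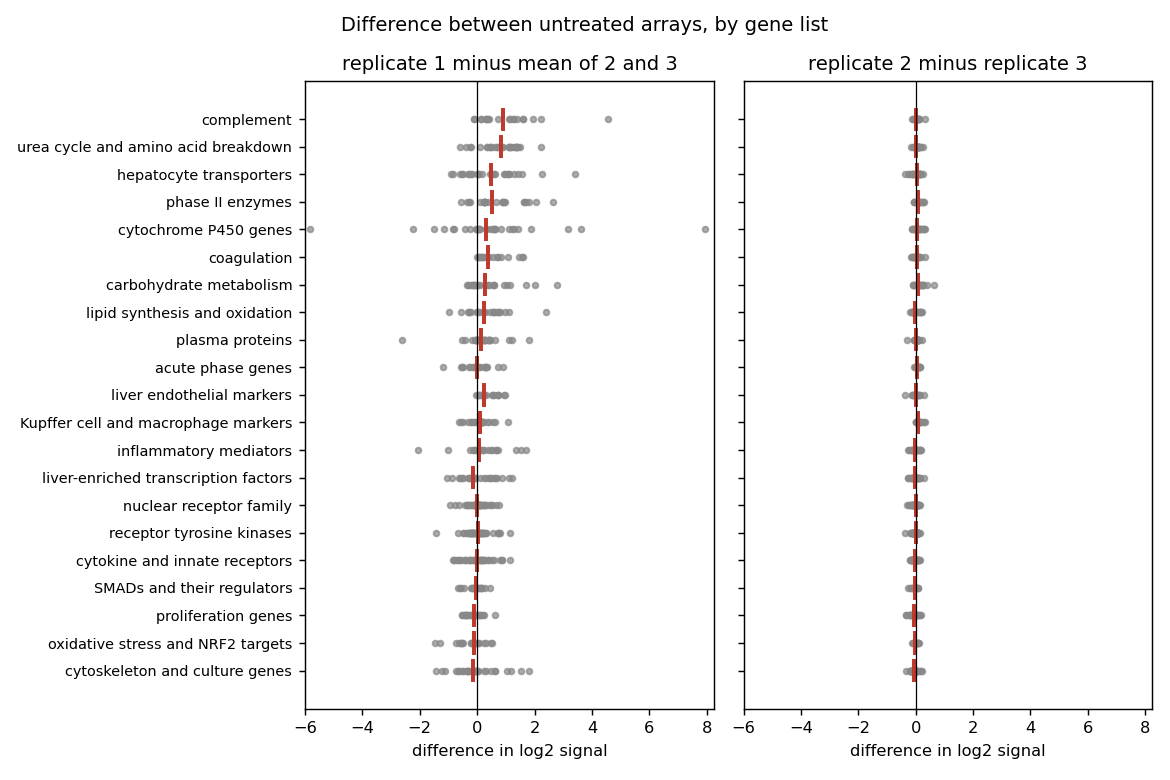
Difference in log2 signal of each list member between replicate 1 and the mean of replicates 2 and 3 (left) and between replicates 2 and 3 (right), with the median of each list in red. Complement and urea cycle genes lie mostly right of 0 in the left panel, and in the right panel all lists lie close to 0.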

How the data were processed

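Untreated primary mouse hepatocytes were measured on 3 Affymetrix Mouse Gene 1.0 ST arrays of a 12-array series. The deposited values are log2 signals per probe set, which the authors made with RMA in Affymetrix Power Tools per the labels (background correction, quantile normalization between arrays and summarization). Versions and the annotation used are not given in the sources used here. The study's methods name FARMS and ComBat for its own analysis, so the deposited values may still hold the batch effect those methods mention. RMA normalized the treated arrays together with the untreated ones, which sets the scale of each value, and RMA compresses differences near the background. Arrays have no read depth, and their number limits the precision.

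Probe sets were named from the platform annotation. Of 35556 probe sets, 1621 carried several symbols and 12146 were not listed, and these were left out. Of 19938 genes, 999 had more than 1 probe set, and the one with the highest mean was used. The floor was the 95th percentile of olfactory receptor probe sets of the same array, and a wide range was a range of at least 1 over the 3 arrays. Of 903 genes in 38 lists 825 were measured, and the others were not analysed here. The rule for named genes took the 20 brightest, the hepatocyte markers, the 10 widest genes above the floor and, from each list, up to 6 of the brightest, up to 4 of the dimmest and the wide members. The text gives a part of these from each list, and that part, and list members outside the rule, were chosen after their values were seen. The members and lists were chosen with earlier results of these data known, and the known direction of each sex-biased gene was noted after the pattern of the sex-linked genes was seen. A planned promoter motif is not reported here. No treated array was compared and no test was run. Alternatives were other floors, other normalizations, the mean of a gene's probe sets, all probe sets, and leaving out each array. Python 3.11.15 with pandas 2.3.3, numpy 2.4.6 and matplotlib 3.10.9 was used, and the scripts were tested on simulated data. Coordinates and promoters are RefSeq's, of GRCm38.p6.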

Additional observations from a re-analysis of the deposited data

How the results depend on the processing

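The number of genes above the floor (12730) stayed between 9484 and 14008 under the other floors, the normalizations, the mean of probe sets, above the floor on at least 1 array, and replicate 1 alone. It was 20495 when all probe sets were counted as features. By list the calls were less steady. With the floor at the 99th percentile of olfactory receptors, members above it changed more than 1.5-fold or fell to 0 in 10 of 38 lists. The floor at the median of single-symbol probe sets gave 10 of 38 as well. Among these were Kupffer cell (17 to 10 and 8), endothelial (16 to 8 and 8), cholangiocyte (5 to 1 and 1) and B cell markers (2 to 0 and 0). Over all genes the same floors took the count from 12730 to 9975 and 9484. The genes with a wide range (564) became 1034 with all probe sets and 1938 at 1.5-fold. Leaving out each array gave 0 to 535, with 0 without replicate 1. The median signal over list genes (9.07) was 8.97 with the mean of probe sets, 8.99 to 9.16 leaving out each array, and 9.30 on replicate 1 alone, which was added after the sex-linked genes were seen. The median SD was 0.047 without replicate 1. TGTTTAC was in 4.52% of promoters among the 200 brightest genes. No paired analysis was possible because the 3 arrays form a single group. Signals near the floor cannot tell low expression from none.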
